A study of Mus musculus with 14 samples.

Results

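The sarcoplasmic reticulum (SR) calcium cycling genes described here are 10 genes fixed by name: Atp2a2, Pln, Hrc, Casq2, Ryr2, Trdn, Jph2, Cacna1c, Slc8a1 and Camk2d. They are 10 of 20614 genes that could be named on the array and are read by 15 of its 55482 probes. The 15 probes were found through the RefSeq accession of each probe, and all 15 were well above background on all 10 arrays for which a scan was available. RNA was measured on 14 one-colour Agilent mouse arrays of the ventricle's border zone, 1 sample per array, from male C57BL/6 mice aged 8 weeks. The left anterior descending coronary artery was tied permanently, which causes a myocardial infarction (MI), and tissue was taken 3 days later (MI 3 days, 5 arrays) or 14 days later (MI 14 days, 5 arrays). The sham mice (4 arrays) had the operation without the ligation, and the time at which their hearts were taken is not stated. The design text counts 10 ligated and 5 sham mice, and 4 sham arrays were analysed here. No allele or agent besides the surgery is named. The labels number the arrays of a group as replicates without naming the mouse, so the p-values measure the spread between these samples. A border-zone sample is mixed tissue, and its cell makeup can differ between groups.

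Each heartbeat is set off by calcium. An electrical signal opens L-type calcium channels in the T-tubule, the small calcium entry opens ryanodine receptors in the facing SR membrane, and the store empties into the cytosol and activates the sarcomeres. Relaxation follows when the SERCA pump returns calcium to the SR and the sodium-calcium exchanger moves the rest out of the cell. Lower SERCA activity and slower calcium reuptake are textbook features of the failing heart.

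The level of a probe is given throughout as log2 of its signal minus the 75th percentile of its array, so a level of 0 is that percentile. A difference of 1 on this scale is a factor of 2. Levels are compared between groups within a probe, never between probes. Differences come from limma fitted to all 32257 tested probes and all 14 arrays, with p-values adjusted by Benjamini-Hochberg over all tested probes and a threshold of adjusted p under 0.05. Errors of differences are standard errors, and the groups hold 5, 5 and 4 arrays (MI 3 days, MI 14 days, sham). Where a gene has several probes, the brightest stands for it and the others are given beside it. The 75th percentile lay between 188.6 and 443 intensity units per array, and no probe was saturated on the 10 scanned arrays. MI 14 days replicate 3 stood apart in several members, and the 14-day results are therefore also given without it.

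The stretches of DNA before the start sites of 8 of the 10 genes were taken from RefSeq on GRCm38.p6, in 11 windows of 250 bases. Atp2a2 and Trdn are named only. The windows were searched on both strands for 6 motifs of muscle genes, and 4 windows are shown: Hrc and Pln because their levels differed most from sham at 3 days, Casq2 because it alone held a MEF2 match, and Slc8a1 because it was the member that did not pass the test at 3 days. Each is written 5′ to 3′ on the gene's strand, and capitals mark the motif matches.
Hrc, chr7:45335019-45335268, plus strand: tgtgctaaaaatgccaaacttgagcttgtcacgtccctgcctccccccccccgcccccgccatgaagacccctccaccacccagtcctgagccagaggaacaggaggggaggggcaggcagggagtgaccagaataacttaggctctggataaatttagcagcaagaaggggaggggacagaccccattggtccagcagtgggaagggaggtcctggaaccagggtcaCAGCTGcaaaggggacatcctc
Pln, chr10:53337436-53337685, plus strand: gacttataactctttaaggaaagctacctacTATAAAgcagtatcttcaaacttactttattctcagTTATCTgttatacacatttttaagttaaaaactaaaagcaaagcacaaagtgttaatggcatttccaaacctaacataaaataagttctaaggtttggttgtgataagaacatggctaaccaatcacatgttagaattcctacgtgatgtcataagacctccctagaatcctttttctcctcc
Casq2, chr3:102086165-102086414, plus strand: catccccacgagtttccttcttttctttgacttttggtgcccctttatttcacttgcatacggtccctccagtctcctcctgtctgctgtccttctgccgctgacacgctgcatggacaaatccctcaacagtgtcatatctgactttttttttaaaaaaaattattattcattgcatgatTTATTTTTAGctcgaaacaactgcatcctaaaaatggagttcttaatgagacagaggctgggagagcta
Slc8a1, chr17:81738388-81738637, minus strand: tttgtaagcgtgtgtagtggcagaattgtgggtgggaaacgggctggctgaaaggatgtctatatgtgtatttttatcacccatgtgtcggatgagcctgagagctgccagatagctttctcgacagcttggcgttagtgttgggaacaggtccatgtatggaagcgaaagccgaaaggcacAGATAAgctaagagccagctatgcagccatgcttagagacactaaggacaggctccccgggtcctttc

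Capitals in the Hrc window are an E-box (CAGCTG), 22 to 17 bases before the start, and the same letters stood in both Jph2 windows. The Jph2 windows overlap, and their match is the same stretch of DNA. The capitals in the Pln window are a TATA box (TATAAA, 219 to 214 bases before the start) and a GATA match (AGATAA read on the other strand, 183 to 178 bases before the start). Slc8a1 held the GATA letters 68 to 63 bases before its start. Casq2 held a match to the MEF2 motif 69 to 60 bases before its start. Over all 32851 windows of the same length, 13.0% held the E-box, 12.4% the TATA box, 9.99% the GATA motif and 2.92% the MEF2 motif. The MCAT motif (CATTCC) and the CArG box are in 12.6% and 1.47% of all windows and in none of the 11. A match is a description of letters, and nothing about binding was measured.

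At 3 days after MI, 9 of the 10 genes were lower than in sham and none was higher, and the remaining gene, Slc8a1, did not pass the test. The luminal calcium binder Hrc was at 18.6% of its sham level, phospholamban (Pln) at 24.6%, the SERCA pump gene Atp2a2 at 29.4% and the ryanodine receptor gene Ryr2 at 32.2%. At 14 days 7 genes were lower than in sham, with Pln at 55.4%, Atp2a2 at 57.6% and Hrc at 59.0%. Between the times 9 genes were higher at 14 days than at 3 days. By the brightest probe, the mean of all 10 genes was lowest at 3 days, intermediate at 14 days and highest in sham. The other Atp2a2 and Trdn probes kept this order. Both dimmer Camk2d probes were lowest at 14 days (1.43 and 1.66), and the second Slc8a1 probe was highest at 3 days (-1.72).

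These counts stand against a broad background. Of all tested probes, 39.7% were lower and 25.5% higher at 3 days, and 65.2% passed in either direction. At 14 days 19.8% were lower and 32.5% passed in either direction. Of those 14-day calls 39.3% were higher, and 53.1% were with the percentile taken over tested probes only. Between the times 32.7% of probes were higher at 14 days and 55.6% passed in either direction. The median difference of the 10 members was -1.47 at 3 days against -0.19 for all tested probes, -0.64 against -0.09 at 14 days, and 0.91 against 0.13 between the times. The arrays of MI 3 days and sham did not overlap for 9 of the 10 members, where 56.8% of all probes also did not overlap and 34.1% did so with MI lower. At 14 days 6 members did not overlap with sham, against 27.4% of all probes. In bulk tissue fewer cardiomyocytes and less RNA per cardiomyocyte cannot be told apart.

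**Figure D1:**
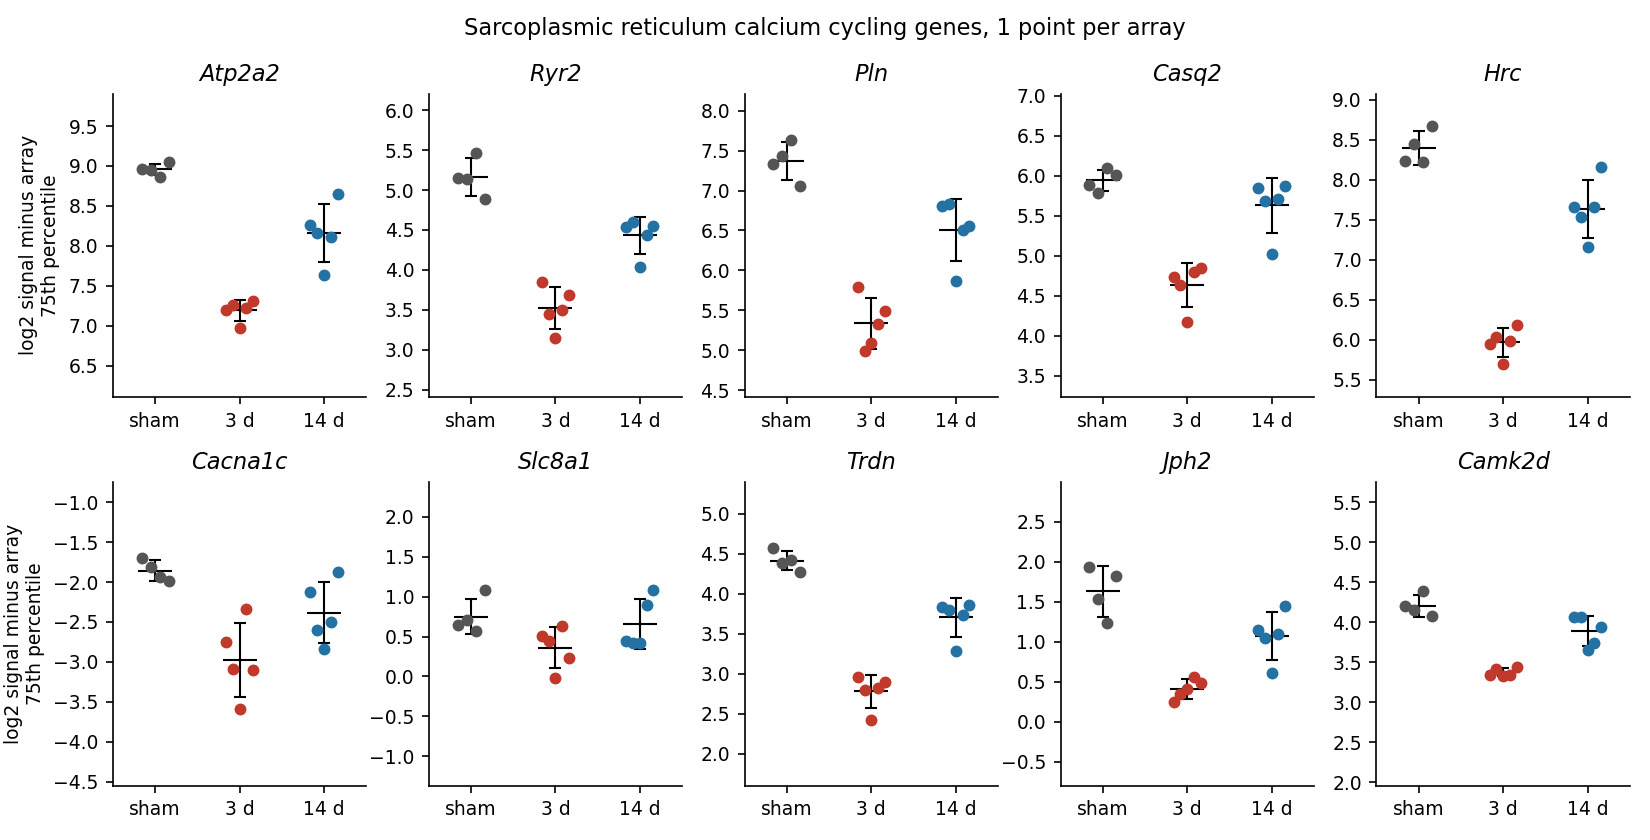
Level of each member (brightest probe, on the log2 scale described above) on every array, by group (sham n = 4, MI 3 days n = 5, MI 14 days n = 5); points are arrays, the wide bar is the mean and the whiskers are 1 SD. Every panel spans the same height, the 3-day points lie below all sham points for 9 members, and the Slc8a1 groups overlap.

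Atp2a2 encodes SERCA2, the pump that refills the SR. It read 7.20, 7.26, 6.97, 7.22 and 7.31 on the MI 3 days arrays, against 8.96, 8.95, 8.87 and 9.04 on the sham arrays. On the MI 14 days arrays it read 8.26, 8.16, 7.64, 8.11 and 8.65. All MI arrays of both times lay below all sham arrays, and the MI arrays of the 2 times did not overlap with each other. The difference from sham was -1.77 ± 0.15 at 3 days (limma, adjusted p = 2.71e-07) and -0.80 ± 0.15 at 14 days (limma, adjusted p = 0.00163). Between the times Atp2a2 was higher at 14 days by 0.97 ± 0.14. The second Atp2a2 probe gave -1.76 ± 0.21 at 3 days and -0.88 ± 0.21 at 14 days, so both probes of the pump moved by like amounts.

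Pln encodes phospholamban, the small membrane protein that holds SERCA back until it is phosphorylated. It read 5.79, 4.99, 5.09, 5.33 and 5.49 on the MI 3 days arrays, against 7.33, 7.43, 7.64 and 7.06 on the sham arrays. At 14 days it read 6.80, 6.83, 5.87, 6.51 and 6.55. The lowest sham array was above every MI array, and the 14-day arrays were above every 3-day array. The difference from sham was -2.03 ± 0.21 at 3 days (limma, adjusted p = 1.22e-06) and -0.85 ± 0.21 at 14 days (limma, adjusted p = 0.00639). Pump and inhibitor were thus both lower, and the ratio of their messages was not tested.

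Hrc encodes the histidine-rich calcium binding protein of the SR lumen, which binds calcium and contacts both triadin and SERCA. It read 5.94, 6.04, 5.69, 5.99 and 6.19 on the MI 3 days arrays, against 8.24, 8.45, 8.22 and 8.67 on the sham arrays. On the MI 14 days arrays it read 7.66, 7.53, 7.15, 7.66 and 8.16. Its 3-day arrays lay more than 2 log2 units below every sham array, with no overlap between any pair of groups. The difference from sham was -2.42 ± 0.17 at 3 days (limma, adjusted p = 4.54e-08) and -0.76 ± 0.17 at 14 days (limma, adjusted p = 0.00415). Between the times Hrc was higher at 14 days by 1.66 ± 0.16 (limma, adjusted p = 1.70e-06), a 3.17-fold difference and the largest such difference of the 10 members.

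Casq2 encodes cardiac calsequestrin, the main calcium buffer of the SR store. It read 4.73, 4.63, 4.17, 4.80 and 4.84 on the MI 3 days arrays, against 5.89, 5.78, 6.09 and 6.01 on the sham arrays. At 14 days it read 5.85, 5.68, 5.03, 5.71 and 5.88. The 3-day arrays lay below all sham arrays, while 4 of the 5 MI 14 days arrays read close to sham and replicate 3 read well below. Against sham the difference was -1.31 ± 0.18 at 3 days (limma, adjusted p = 1.71e-05) and -0.32 ± 0.18 at 14 days, which did not pass (limma, adjusted p = 0.190). Between the times Casq2 was higher at 14 days by 0.99 ± 0.17.

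Ryr2 encodes the ryanodine receptor, the channel through which the SR releases calcium. It read 3.85, 3.45, 3.15, 3.50 and 3.69 on the MI 3 days arrays, against 5.15, 5.14, 5.47 and 4.89 on the sham arrays. On the MI 14 days arrays it read 4.54, 4.59, 4.03, 4.44 and 4.55. All 3 groups were separate from each other. Relative to sham it was -1.64 ± 0.16 at 3 days (limma, adjusted p = 7.65e-07) and -0.73 ± 0.16 at 14 days (limma, adjusted p = 0.00337).

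Trdn encodes triadin, which anchors calsequestrin to the release channel. Its brightest probe read 2.96, 2.80, 2.43, 2.82 and 2.90 on the MI 3 days arrays, against 4.58, 4.39, 4.42 and 4.28 on the sham arrays. At 14 days it read 3.84, 3.80, 3.28, 3.74 and 3.86. No groups overlapped in this probe. Set against sham, the difference was -1.64 ± 0.13 at 3 days (limma, adjusted p = 1.73e-07) and -0.71 ± 0.13 at 14 days (limma, adjusted p = 0.00148), close in size to those of Ryr2. The dimmer Trdn probe gave -0.70 ± 0.17 at 3 days and -0.25 ± 0.17 at 14 days, the second of which did not pass (limma, adjusted p = 0.293).

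Jph2 encodes junctophilin 2, which ties the T-tubule to the SR membrane. It read 0.25, 0.34, 0.40, 0.56 and 0.49 on the MI 3 days arrays, against 1.94, 1.54, 1.23 and 1.82 on the sham arrays. At 14 days it read 1.15, 1.04, 0.61, 1.10 and 1.45. The 3-day arrays lay below all others, while 1 MI 14 days array reached into the sham range. Its difference from sham was -1.22 ± 0.16 at 3 days (limma, adjusted p = 1.79e-05) and -0.56 ± 0.16 at 14 days (limma, adjusted p = 0.0187). The 14-day call ended in 6 of 25 alternatives, among them slide as a block (limma, adjusted p = 0.109) and leaving out sham replicate 1 (limma, adjusted p = 0.0653).

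Cacna1c encodes the pore of the L-type calcium channel Cav1.2. The gene has 52 RefSeq transcripts and is read by a single dim probe, at 19.9 to 93.0 intensity units over all arrays. It read -2.75, -3.08, -3.59, -2.34 and -3.10 on the MI 3 days arrays, against -1.70, -1.81, -1.94 and -1.99 on the sham arrays. On the MI 14 days arrays it read -2.12, -2.60, -2.83, -2.50 and -1.88. The 3-day arrays were below all sham arrays but spread over more than 1 log2 unit, and the 14-day arrays overlapped with both other groups. Against sham the difference was -1.11 ± 0.23 at 3 days (limma, adjusted p = 0.000734) and -0.53 ± 0.23 at 14 days, which did not pass (limma, adjusted p = 0.0966). On the scanned arrays with slide as a block, the 3-day difference was -0.78 with an adjusted p of 0.0526 from limma. This 3-day call thus depends on the setting. With normexp on the scanned arrays, the difference between the times was 0.19 and did not pass (limma, adjusted p = 0.409). MI 3 days replicate 3, the lowest array, was not scanned.

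Slc8a1 encodes the sodium-calcium exchanger NCX1, the main route by which a cardiomyocyte exports calcium. It read 0.51, 0.45, -0.02, 0.63 and 0.23 on the MI 3 days arrays, against 0.65, 0.71, 0.57 and 1.08 on the sham arrays. At 14 days it read 0.45, 0.42, 0.42, 0.89 and 1.09. The groups overlapped, and the difference from sham was -0.39 ± 0.17 at 3 days (limma, adjusted p = 0.0609) and -0.10 ± 0.17 at 14 days (limma, adjusted p = 0.703). A second Slc8a1 probe, made to another transcript accession, gave 0.08 ± 0.43 at 3 days and did not pass either. That probe read 0.12 on MI 3 days replicate 1 and between -2.54 and -1.86 on the other 4 MI 3 days arrays, against -2.25 to -1.35 on the sham arrays. A p that misses the threshold does not show that the exchanger kept its level.

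Camk2d encodes the delta chain of calcium/calmodulin-dependent kinase II, which phosphorylates phospholamban and the ryanodine receptor. Its brightest probe read 3.34, 3.41, 3.33, 3.34 and 3.44 on the MI 3 days arrays, against 4.20, 4.15, 4.39 and 4.07 on the sham arrays. At 14 days it read 4.07, 4.06, 3.65, 3.74 and 3.94. No MI array reached the sham range in this probe, though the highest MI 14 days array came close to it. Its difference was -0.83 ± 0.10 at 3 days (limma, adjusted p = 5.83e-06) and -0.31 ± 0.10 at 14 days (limma, adjusted p = 0.0280). Neither of the other Camk2d probes, which carry the same accession, passed at either time. They gave 0.01 ± 0.08 and -0.08 ± 0.10 at 3 days, and -0.12 ± 0.08 and -0.09 ± 0.10 at 14 days. The 3-day call for Camk2d therefore rests on 1 of its 3 probes. The gene has 40 RefSeq transcripts, and which of them each probe reads was not analysed here.

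**Figure D2:**
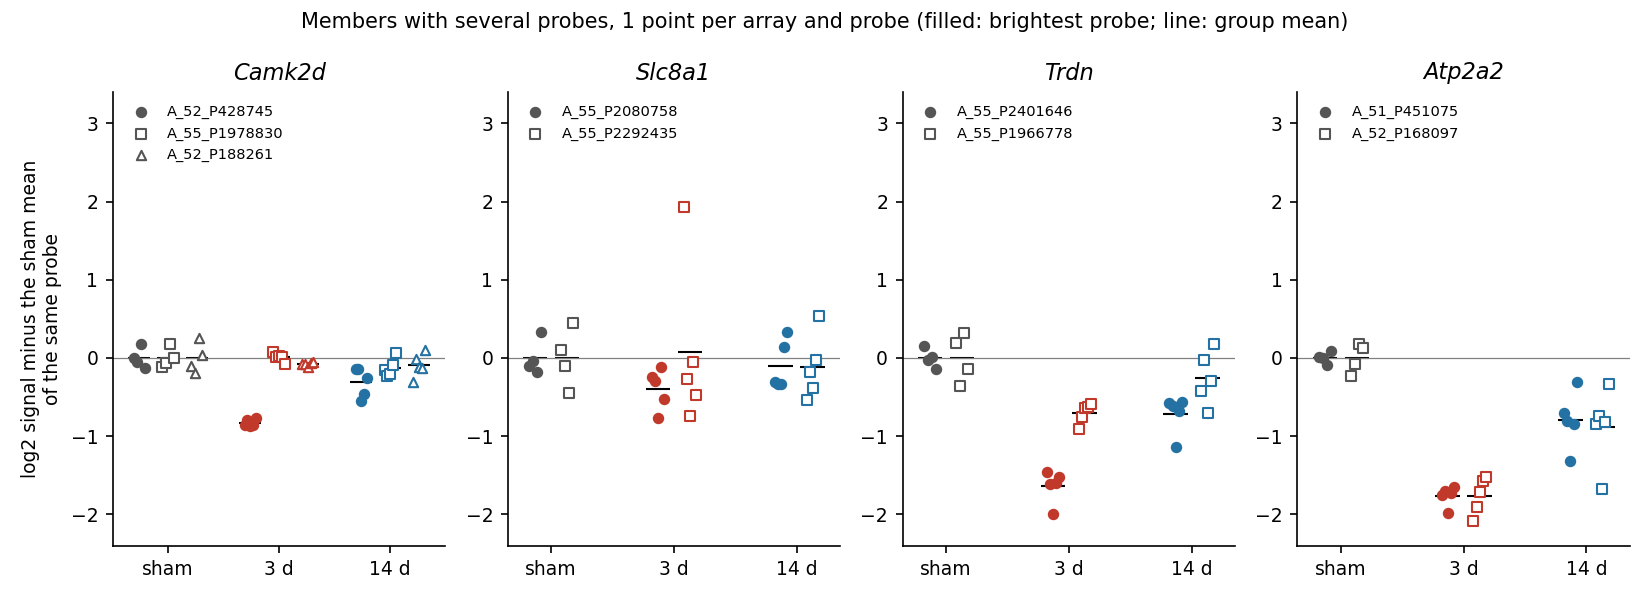
Level of each probe of the 4 members with several probes, given as log2 level less that probe's own sham mean, on every array by group; filled symbols are the brightest probe, open symbols the others, and short lines are group means. The Camk2d probes part at 3 days, where only the brightest lies near -0.83, while the Atp2a2 probes lie together near -1.77 and -1.76.

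Counted over probes, 11 of the 15 were lower than in sham at 3 days, 8 were lower at 14 days and 11 were higher at 14 days than at 3 days. No probe of a member passed the test in the opposite direction. The 4 that did not pass at 3 days were both Slc8a1 probes and the dimmer Camk2d probes.

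The comparison of MI 14 days with MI 3 days measures how the 2 effects differ, since both share the sham arrays. The difference was 1.17 ± 0.19 for Pln, 0.97 ± 0.14 for Atp2a2, 0.92 ± 0.13 for Trdn and 0.90 ± 0.15 for Ryr2. It was 0.66 ± 0.16 for Jph2, 0.59 ± 0.22 for Cacna1c and 0.52 ± 0.09 for Camk2d. For Slc8a1 it was 0.29 ± 0.16 and did not pass (limma, adjusted p = 0.142). The arrays of the 2 times did not overlap for 8 members, where 40.0% of all tested probes did not overlap. Cacna1c had the weakest call (limma, adjusted p = 0.0332).

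MI 14 days replicate 3 had the lowest level of its group in 9 of the 10 members, all but Slc8a1. It also had 62 non-uniform spots, against 0 to 33 on the other 3 scanned MI 14 days arrays. Without it 6 members were lower than in sham at 14 days, since Camk2d no longer passed (limma, adjusted p = 0.0584), and the median difference of the members was -0.53. Without it Atp2a2 gave -0.66, Ryr2 -0.63, Pln -0.69, Hrc -0.64 and Trdn -0.61 against sham, and each still passed, as did Jph2 with -0.45. Between the times the same 9 genes were higher without it, with 1.78 for Hrc and 1.33 for Pln. MI 3 days replicate 3 likewise had the lowest level of its group in 8 of the 10 members and the lowest sarcomere gene mean, 6.39. Without it 9 members were still lower than in sham at 3 days, with a median of -1.38, and 8 were higher at 14 days than at 3 days, since Cacna1c no longer passed (limma, adjusted p = 0.0876).

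The 10 scanned arrays lay on 3 slides. Slide 2 held 1 MI 3 days and 1 sham array, and slide 3 held 1 MI 3 days, 3 MI 14 days and 1 sham array. Within slide 2 the members' 3-day differences from sham ran from -2.31 to 0.06 with a median of -1.45, and within slide 3 from -2.48 to -0.64 with a median of -1.27. Within slide 1 the 14-day differences from sham ran from -0.70 to 0.02 with a median of -0.58, and within slide 3 from -1.01 to -0.28 with a median of -0.60. Between the times the differences within slide 3 ran from 0.34 to 1.47 with a median of 0.70. Every call of a member kept its direction within every slide that held both groups. Where the arrays of the groups do not overlap, as for all 9 members called at 3 days, that direction was fixed in advance. It is no further support for those calls. With slide as a block 8 members were lower at 3 days and 5 were lower at 14 days. In that fit 4 were higher at 14 days than at 3 days (Hrc, Pln, Ryr2 and Trdn). Of the 32257 tested probes, 10127 were lower and 6245 higher at 3 days with the block. At 14 days 5075 probes passed in either direction with it, and between the times 9127 did.

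The members were next set against other genes of the cardiomyocyte. Of 20 sarcomere genes, 19 were lower than in sham at 3 days and 1, the intermediate filament gene Des, was higher, while 4 were lower at 14 days. Their mean log2 level per array was 6.39 to 6.77 at MI 3 days, against 7.56 to 7.79 in sham, and 7.33 to 7.75 at MI 14 days, which overlapped with sham. Of 10 energy genes of the cardiomyocyte, all were lower at 3 days and 7 were lower at 14 days. Macrophage and monocyte genes moved the other way, with 10 of 11 higher and 1 lower at 3 days and a mean log2 level of 3.37 to 4.05 at MI 3 days, against 1.37 to 1.58 in sham. At 14 days 5 of the 11 were higher and none lower, with a mean level of 2.07 to 2.68 that did not overlap with sham. Of 7 neutrophil genes 5 were higher and 1 lower at 3 days, and their mean level was 1.05 to 2.41 at MI 3 days, against -0.89 to -0.32 in sham. Of 10 fibroblast genes 6 were higher and 2 lower at 3 days and all were higher at 14 days, where their mean level was 5.18 to 5.70, against 3.46 to 3.80 in sham. Of 8 atrial genes, Sln among them, 5 were lower at each time, 1 was higher at 3 days and 3 were higher at 14 days. Of 10 endothelial genes 4 were lower and 1 higher at 3 days, of 9 genes of smooth muscle and pericytes 4 were lower and 4 higher, and of 5 measured skeletal muscle genes 1 was lower and 2 higher. Of all tested probes 39.7% were lower and 25.5% higher at 3 days, and 19.8% were lower and 12.8% higher at 14 days. The 4 of 20 sarcomere genes lower at 14 days and the 4 of 10 endothelial genes lower at 3 days lie near these shares. The part of cell makeup in the members' differences was not tested.

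Each array's mean over the 20 sarcomere genes was then subtracted from all its probes and the fit repeated, which asks whether a member moved by more or less than those genes did. At 3 days 6 members were lower on this scale, where 6.71% of all tested probes were lower and 70.1% higher. Hrc was lower, at -1.44 ± 0.12 (limma, adjusted p = 4.76e-08), Pln at -1.04 ± 0.21, Atp2a2 at -0.78 ± 0.11, Ryr2 at -0.65 ± 0.16 and Trdn at -0.65 ± 0.13. Casq2 gave -0.32 ± 0.14, just past the threshold (limma, adjusted p = 0.0475). Of 27 alternatives, 16 lost this call with the sign kept. In 1 more, relative to energy genes, the sign changed and it did not pass (0.18, limma, adjusted p = 0.179). Cacna1c, Jph2 and Camk2d did not pass, with -0.13 ± 0.19, -0.24 ± 0.15 and 0.15 ± 0.13. The dimmer Camk2d probes were higher on this scale, by 0.99 ± 0.12 and 0.91 ± 0.13 (limma, adjusted p = 2.47e-06 and 1.10e-05). The Camk2d probes thus disagree here too. The dimmer Trdn probe gave 0.28 ± 0.18 and did not pass (limma, adjusted p = 0.157). Slc8a1 was higher on this scale by 0.59 ± 0.13 (limma, adjusted p = 0.000821). The median of all tested probes was 0.79, above 0, while the members' median was -0.49.

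At 14 days Pln (-0.69 ± 0.21), Atp2a2 (-0.63 ± 0.11), Hrc (-0.60 ± 0.12), Ryr2 (-0.57 ± 0.16) and Trdn (-0.55 ± 0.13) were lower relative to the sarcomere genes. The Trdn call rests on its brightest probe, since the dimmer one gave -0.09 ± 0.18 and did not pass (limma, adjusted p = 0.767). On this scale 6.98% of all tested probes were lower at 14 days, and 21.1% passed in either direction. The other 5 members did not pass. With the 10 energy genes in place of the sarcomere genes, an alternative chosen after seeing the data, 3 members stayed lower at 3 days (Hrc -0.94, Pln -0.54 and Atp2a2 -0.28) and 1 at 14 days (Atp2a2 -0.31). On that scale Slc8a1 (1.10) and Camk2d (0.66) were higher at 3 days, and Slc8a1 (0.39) at 14 days. The share of all tested probes past the threshold on that scale is not given here, so these counts have no background beside them. With slide as a block, a fit on the 10 scanned arrays, no member was past the threshold relative to the sarcomere genes at 14 days, though the differences were of like size (Hrc -0.64, Atp2a2 -0.61, and a median over members of -0.44). The same 10 arrays without the block gave 5, and leaving out MI 14 days replicate 3 left 4, without Pln. The measure within an array shows unequal change, not which of the genes changed.

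Between the times Hrc was the 1 member that was higher at 14 days relative to the sarcomere genes, by 0.84 ± 0.11 (limma, adjusted p = 7.93e-06), where 3.21% of all tested probes were higher and 71.6% lower. Slc8a1 (-0.53 ± 0.12) and Camk2d (-0.30 ± 0.13) were lower on this scale. The Camk2d call was just past the threshold (limma, adjusted p = 0.0404) and was lost in 13 of 29 alternatives. The dimmer Camk2d probes were lower by more, at -0.96 ± 0.11 and -0.84 ± 0.12. Atp2a2, Ryr2, Pln, Trdn, Casq2, Jph2 and Cacna1c did not pass, with differences between -0.23 and 0.35. Leaving out MI 14 days replicate 3 gave 4 higher and 1 lower.

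**Figure D3:**
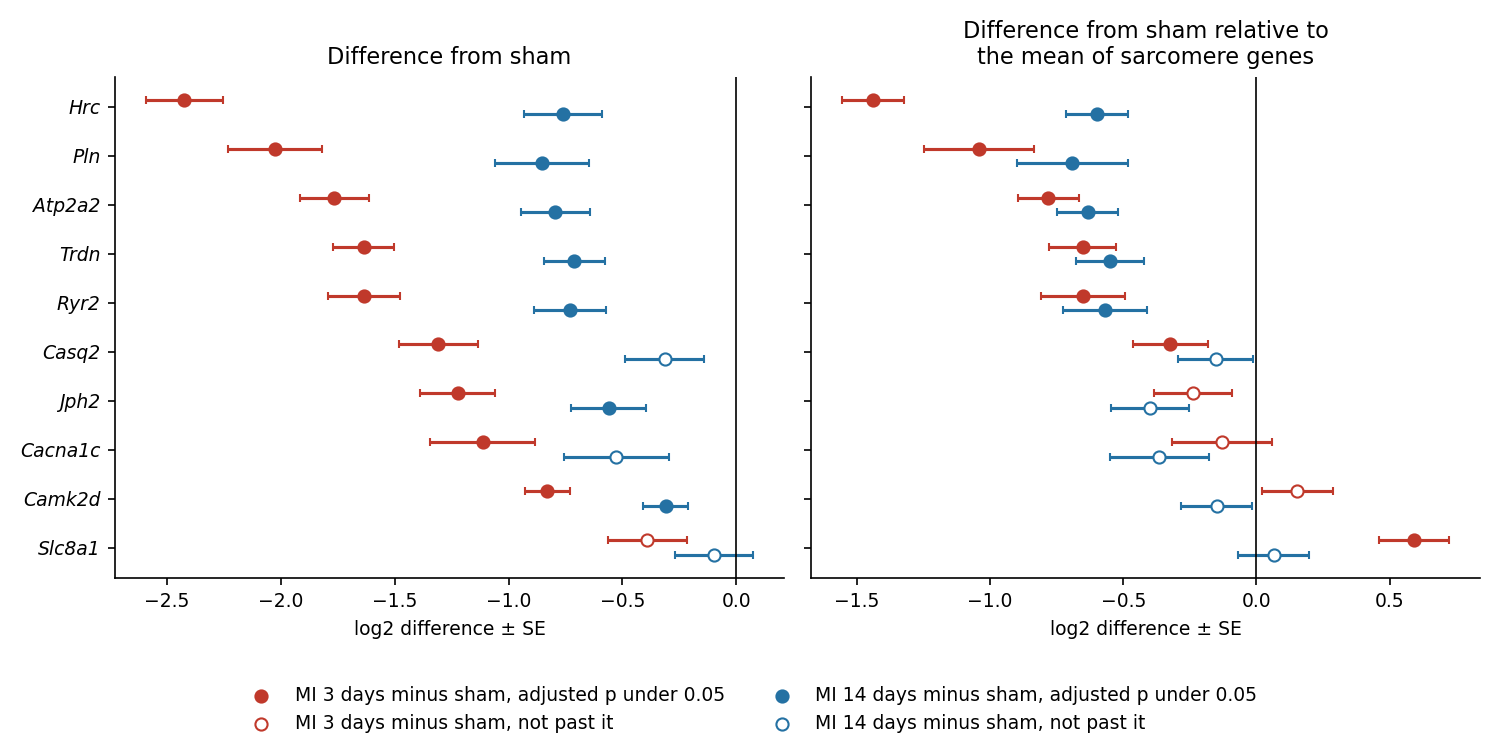
Left, log2 difference of each member from sham with its SE, at MI 3 days (red) and MI 14 days (blue); right, the same after subtracting each array's mean over 20 sarcomere genes. Filled points passed an adjusted p under 0.05 and open points did not; Hrc is farthest below 0 at 3 days in both panels (-2.42 and -1.44), and Slc8a1 lies above 0 on the right (0.59).

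Of the wider calcium-handling machinery 82 further genes were listed by role, 77 were found on the array and 73 were tested. At 3 days 39 of the 73 were lower and 16 higher, with a median difference of -0.41, where 39.7% of all tested probes were lower and 25.5% higher. At 14 days 23 were lower and 9 higher, where 19.8% of all tested probes were lower and 12.8% higher. Between the times 32 were higher and 16 lower at 14 days, where 32.7% of all tested probes were higher and 22.9% lower. The counts by role below stand against the same shares, and several lie near them, as for mitochondrial calcium transport. The counts include Sln, Ryr1 and Trpc6, which were tested because of their level in the brighter group. The list was drawn up by role, with earlier results of these data known.

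Among 5 further SERCA pumps and small regulators 4 were lower at 3 days and none was higher. Sarcolipin (Sln), a SERCA inhibitor of atrial muscle, read -6.43, -3.41, -3.69, -6.29 and -3.34 on the MI 3 days arrays, against 0.77, 0.86, -1.80 and 2.13 on the sham arrays. At 14 days Sln read -4.87, -3.59, -0.54, -5.28 and -2.36. It was well above background on 1 of 2 scanned MI 3 days arrays, 2 of 4 scanned MI 14 days arrays and all 4 sham arrays. Sln is 1 of the 4 but was tested because of its sham level, so its place in that count is no support for a fall. With readings that are partly not above background no fold is given. The MI 3 days arrays did not reach the sham range, while MI 14 days replicate 3 lay within it. The atrial light chain gene Myl7 moved beside it, at -5.03 to -3.85 on the MI 3 days arrays, against -1.78 to 1.50 on the sham arrays, and was -1.78 where Sln was lowest among the sham arrays. The part of atrial tissue in the Sln readings was not tested. Atp2a1, the SERCA1 pump gene of fast skeletal muscle, was lower, at -1.84 ± 0.23, Hspb6, a small heat shock protein, at -1.15 ± 0.13, and Atp2a3 at -0.55 ± 0.12.

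Among 12 release channels and partners 5 were higher and 2 lower at 3 days, and 2 were higher at 14 days. Fkbp1b, the immunophilin FKBP12.6 that binds Ryr2, was higher by 1.43 ± 0.21 at 3 days and by 1.01 ± 0.21 at 14 days. Asph, whose gene also gives the SR protein junctin, was lower, at -1.51 ± 0.12 at 3 days, and S100a1, a calcium sensor that binds SERCA2 and Ryr2, at -1.47 ± 0.13. Ryr1, the skeletal muscle release channel, is among the 5, but it was tested because of its MI 3 days level and was well above background on 1 of 4 sham arrays, so no fold is given. It read -4.19 to -0.44 on the MI 3 days arrays, against -6.19 to -4.09 on the sham arrays, and these ranges overlap. Receptor and partner thus differed in direction at 3 days, with Ryr2 lower and Fkbp1b higher.

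Of 6 genes of luminal calcium binding and counter-ion channels 4 were lower and 2 higher at 3 days. Tmem38a, the TRIC-A cation channel of the SR, was lower, at -1.75 ± 0.14 at 3 days and -0.68 ± 0.14 at 14 days. Casq1, the skeletal calsequestrin, gave -1.19 ± 0.24 and sarcalumenin (Srl) -1.10 ± 0.17 at 3 days. Calreticulin (Calr), the calcium binder of the general endoplasmic reticulum, was higher by 0.70 ± 0.09 at 3 days.

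Of 7 further genes of the dyad and T-tubule 3 were lower and 1 higher at 3 days. Bin1, which bends T-tubule membranes in muscle and is also made in other cells, was higher by 1.63 ± 0.12 at 3 days and 0.44 ± 0.12 at 14 days. Speg, a kinase that binds junctophilin 2, was lower, at -1.36 ± 0.12, Jph1 at -0.99 ± 0.40 and the anchoring protein gene Akap6 at -0.98 ± 0.11 at 3 days. Jph2 itself thus moved with Speg and against Bin1.

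Of 13 further genes of sarcolemmal calcium entry 7 were lower and 2 higher at 3 days. The T-type channel genes Cacna1g and Cacna1h were lower, at -1.53 ± 0.18 and -1.21 ± 0.20, and Cacna2d1, a subunit of the L-type channel, at -1.14 ± 0.11. Trpc6, among the 2 higher genes, was not well above background on any sham array. It was tested because of its MI 3 days level, so its place in that count is no support for a change. Against the detection floor its 3-day level was at least 2.10-fold higher. No p is given, since the sham readings are not above background. Measured means of Trpc6 were -3.28 at MI 3 days and -6.03 in sham.

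Of 6 further extrusion genes 3 were lower and 2 higher at 3 days. Fxyd1, phospholemman, which regulates the sodium pump and the exchanger, was lower, at -1.16 ± 0.15. Atp2b2, a plasma membrane calcium pump, gave -1.08 ± 0.22 and the exchanger gene Slc8a3 -0.88 ± 0.16, while Slc8a2 was higher by 0.40 ± 0.14. The 2 other exchanger genes thus passed in opposite directions at 3 days.

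Of 17 kinases, phosphatases and phosphodiesterases 13 were lower and 2 higher at 3 days, and 10 were lower and 1 higher at 14 days. Pde4d, a phosphodiesterase that breaks down cyclic AMP, was lower, at -2.14 ± 0.15 at 3 days and -1.23 ± 0.15 at 14 days. Camk2b, the beta chain of the kinase, was lower, at -1.85 ± 0.16 at 3 days, more than any Camk2d probe. Akap7, an anchor of protein kinase A near phospholamban, gave -1.39 ± 0.43 and Ppp2r3a, a phosphatase subunit, -1.35 ± 0.17.

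Of 7 genes of mitochondrial calcium transport 3 were lower and 2 higher at 3 days. Mcub, which limits the mitochondrial calcium uniporter, was higher by 2.27 ± 0.16 at 3 days and by 0.59 ± 0.16 at 14 days. Letm1 was lower, at -0.78 ± 0.10, Smdt1, an essential uniporter subunit, at -0.61 ± 0.10 and Micu2 at -0.32 ± 0.09 at 3 days.

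**Figure D4:**
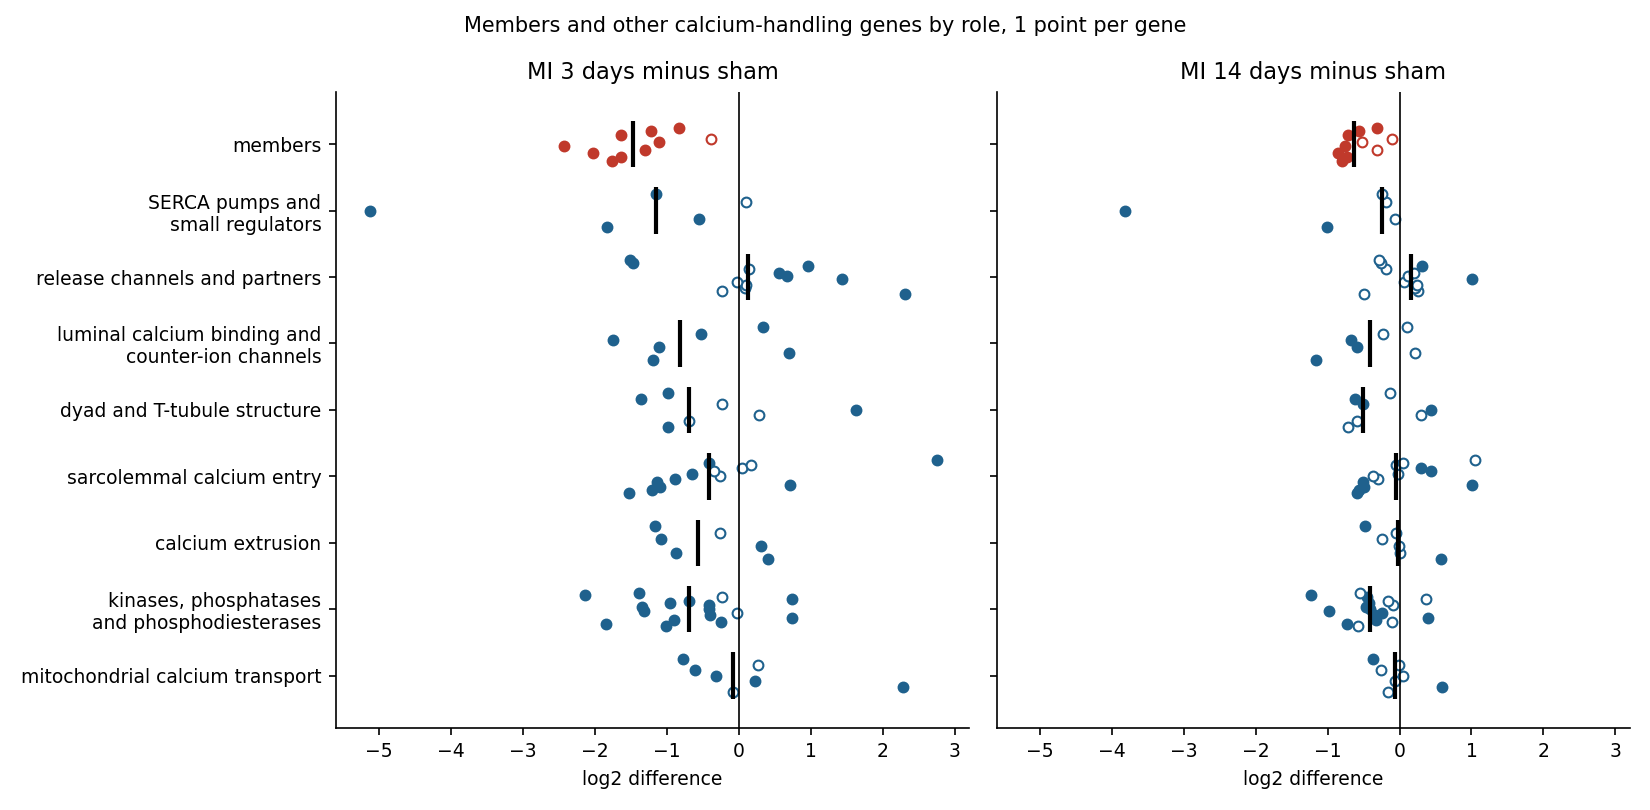
Log2 difference from sham at MI 3 days (left) and MI 14 days (right) of the 10 members (red) and 73 other calcium-handling genes by role (blue), 1 point per gene; filled points passed an adjusted p under 0.05 and the black bar is the median of the row. The members' medians are -1.47 and -0.64, against -0.41 and -0.19 over the 73 other genes.

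Across the 14 arrays the members' levels varied together, as a description with no test, since all points share the group structure. Over the 45 pairs of members Pearson's r was 0.458 to 0.990 with a median of 0.930. After each group's mean was removed r was -0.261 to 0.926 with a median of 0.563, and 43 of 45 pairs were positive. The pairs are not independent. MI 14 days replicate 3 was the lowest of its group in 9 members and MI 3 days replicate 3 in 8, and no r without these arrays is given. The named gene most like Atp2a2 was Atp5j (r = 0.995), and the next was Ndufa8 (r = 0.995). Those of Hrc were Atp5k (0.997) and Ldhb (0.996), and those of Pln were Pdha1 (0.993) and Prkaa2 (0.993). For Trdn they were Dlat (0.995) and Abhd18 (0.994), for Ryr2 Pex19 (0.992) and Miga1 (0.992), for Casq2 Asb2 (0.992) and Sirt5 (0.985), and for Jph2 Gm826 (0.975) was among them. For Camk2d Il10rb (0.986) was among them. They were for Cacna1c Zpbp (0.947) and Kcnt1 (0.943), and for Slc8a1 Stk40 (0.938) and Psg21 (0.885). After group means were removed, r with these genes was between 0.842 and 0.960. The genes were picked by their r over the same arrays, so these values are no separate support for a likeness.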

How the data were processed

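RNA of 14 ventricle samples was measured on one-colour Agilent mouse arrays. The values used are linear Cy3 intensity values, 1 per probe and array, deposited by the authors without scaling between arrays. Scans of 10 arrays (2 MI 3 days, 4 MI 14 days and 4 sham) came from Feature Extraction 10.7.3.1, per the file headers, and all 55050 single-spot probes had the same intensity there as in the deposited values (tolerance 1e-05). The submitters' processing notes list limma with neither version nor role. Per the labels, 200 ng of total RNA was labelled, and poly-T purification is also named.

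From these, log2 was taken and each array's 75th percentile subtracted. A probe was tested if well above background on every scanned array of at least 1 group, which left 32257 of 55482 probes. One limma fit (version 3.58.1, R 4.3.3, two-sided) held all 3 groups, with Benjamini-Hochberg adjustment over all tested probes and a threshold of 0.05. A probe not above background on any scan of a group gives a lower bound, the bright group's mean over the dim group's detection floor. Precision is limited by how many arrays each group has. The procedure was tested on simulated data.

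The scans hold no gene name, so probes were named from RefSeq accessions with RefSeq genes on GRCm38.p6 (27144 probes, 20614 symbols), and the planned match by gene name was replaced by this. The mean spot signal is likewise not in the scans used, so the median signal entered the normexp alternative. The members and lists were chosen with earlier results of these data known. Per role, at most the 4 genes with the largest change past the threshold at 3 days were named, and for likeness the 2 genes with the highest correlation, of which some are not reported here. Alternatives were quantile normalization, another percentile, 2 other filters, the scanned signals with and without normexp (offset 50), slide and replicate blocks, fits of 2 groups, other variance priors, other probe rules and leaving out each array. No table column was left unused.

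Promoter windows came from RefSeq, 250 bases before each start on GRCm38.p6.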

Additional observations from a re-analysis of the deposited data

Results flagged for a closer look

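Results were singled out where 1 array lay far from its group (Dixon's criterion, 30 groups of members and arrays checked, of which chance singles out about 1 in 20) or where the MI effects at 14 and 3 days differed by limma's test.

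MI 14 days replicate 3 was far below the rest of its group in 3 members. Ryr2 read 4.03 there, against 4.44 to 4.59 on the other 4 MI 14 days arrays. Casq2 read 5.03, against 5.68 to 5.88, and Trdn read 3.28, against 3.74 to 3.86. The part of this array in the 14-day results is given by the values without it, where Ryr2 was -0.63 and Trdn -0.61 against sham, both past the threshold, and Casq2 was -0.16 and not past it.

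The effect at MI 14 days minus the effect at MI 3 days passed the test for 9 members. It was 1.66 for Hrc, 1.17 for Pln, 0.99 for Casq2, 0.97 for Atp2a2, 0.92 for Trdn, 0.90 for Ryr2, 0.66 for Jph2, 0.59 for Cacna1c and 0.52 for Camk2d, all higher at 14 days. limma's adjusted p over these was 1.70e-06 for Hrc and 0.0332 for Cacna1c at the extremes. For Camk2d, neither dimmer probe passed in this comparison.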

How the results depend on the processing

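The count of members past the threshold was 8 to 10 over 26 alternatives at 3 days, 5 to 8 at 14 days and 4 to 9 between the times, and no alternative put members past it in opposite directions. Slide as a block, on the 10 scanned arrays and so with fewer samples, left 5075 probes, 13 further calcium genes and 0 members relative to sarcomere genes past it at 14 days, and between the times 9127 probes, 4 members, 18 calcium genes and 1 member relative to sarcomere genes. The scanned signals left 27 calcium genes and 1 relative member between the times, and normexp left 10625 probes and 27 calcium genes. Without the filter 20 calcium genes and 3 relative members passed at 14 days. Quantile normalization gave 6 relative members between the times, and energy genes in place of sarcomere genes gave 2 at 14 days and 5 between the times. The alternatives without the filter, with quantile normalization and with energy genes used all 14 arrays. The cause of these shifts was not tested. For the counts of relative members, the share of all tested probes under each alternative is not given here.

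Leaving out 1 array gave 9 to 10 members at 3 days, 5 to 8 at 14 days and 8 to 9 between the times, and of relative members 6 to 7, 3 to 5 (3 without sham replicate 1) and 2 to 5 (5 without MI 14 days replicate 3). Pathway counts ran from 51 to 57, 22 to 34 and 44 to 50, and probe counts from 19789 to 21443, 8721 to 10793 and 16507 to 18323.

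Of the members' differences that passed the threshold, 5 values changed sign under an alternative: Camk2d gave 0.0091 at 3 days and -0.13 and -0.016 between the times, the dimmer Trdn probe gave 0.28 relative to sarcomere genes at 3 days, and Casq2 gave 0.18 relative to energy genes at 3 days. Another 27 values changed sign where the difference had not passed, among them Slc8a1 at 3 days within slide 2 (0.06), Casq2 at 14 days within slide 1 (0.02) and Slc8a1 at 14 days without sham replicate 4 (0.01). The 3-day call of Cacna1c ended in 1 of 25 alternatives, and that of Slc8a1 was gained in 5 of 26. At 14 days the call of Camk2d ended in 12 of 27 alternatives and that of Jph2 in 6 of 25, and Cacna1c lost its call between the times in 11 of 25. Of all probes called at 14 days 39.3% were higher than in sham, and 53.1% were with the percentile taken over tested probes.

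Deviations of same-numbered arrays correlated weakly (r from -0.135 to 0.224). With so few pairs this cannot exclude that the numbers mark a pairing or a shared batch, and the main fit used no pairing. With the replicate block the members past the threshold were 10 at 3 days (Slc8a1 gained), 7 at 14 days and 9 between the times; relative to sarcomere genes 6 (5 lower and 1 higher), 5 and 3; calcium genes 55, 35 and 47; and probes 20965, 10381 and 17839. Of 4, 4 and 5 same-numbered pairs, 2, 1 and 3 arrays correlated best with their own number.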
